A study of Mus musculus with 23 samples.

Results

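The 10 C-type lectin genes described here were taken from the count table by symbol, 10 of the 33280 genes it lists: 5 genes of the Cd209 cluster (Cd209a, Cd209b, Cd209d, Cd209f and Cd209g) and 5 other lectin receptors (Clec10a, Mrc1, Clec4n, Clec4a2 and Clec7a). C-type lectin receptors bind sugars through a calcium-dependent lectin domain. On macrophages and dendritic cells they take up glycoproteins and microbes, and some of them signal. Border-associated macrophages of the brain, which line the meninges and vessels, are known for several of these receptors, and CD206, the protein of Mrc1, is the marker by which they are commonly sorted. The Cd209 genes are the mouse relatives of human DC-SIGN and lie side by side in the genome.

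The 23 RNA-seq libraries came from Ccr2creERT2/+ R26tdT/tdT mice killed 1 day after an ischemic stroke, induced by thrombin in the middle cerebral artery. There were no libraries without stroke among them. For 7 days they had been gavaged with vehicle (CTL) or with 200 mg per kg of BLZ945, which blocks the CSF1 receptor and so removes macrophages from the brain, and the stroke followed 8 weeks later. All of them carried the Ccr2-driven inducible Cre and had been given tamoxifen at 2 mg per day around the end of the gavage, so tdTomato (tdT) marks cells that expressed Ccr2 at that time, and their progeny. Cells were sorted from brain slices without choroid plexus as CD45int CD11b+ CD206- microglia (MG) or as CD206+ subdural CNS-associated macrophages (sdCAMs), the latter split into tdT- and tdT+ cells, after exclusion of Ly6C, Ly6G and CD11c positive cells. Microglia gave 5 libraries in each treatment (MG CTL and MG BLZ945), and so did tdT- sdCAMs (tdT- CTL and tdT- BLZ945), all labelled F1, F2, F3, M1 and M2. The tdT+ sdCAMs gave 3 libraries, all from BLZ945 mice (F2, F3 and M2). CTL libraries held cells of 1 animal and BLZ945 libraries those of 2 pooled animals, except F2 with 1 animal. One animal number stands in the names of both the BLZ945 libraries F2 (female) and M1 (male pool), so whether these share an animal is not settled by the labels, and the MG and tdT- libraries M1 of BLZ945 mice held 0 counts of Xist, a transcript of female cells. Treatment and pooling go together except in the BLZ945 libraries F2, and 1 such animal is too few to tell them apart. The absence of tdT does not by itself show the origin of a cell, since only Ccr2-expressing cells of the tamoxifen window could be labelled.

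Libraries held 9433960 to 13276081 counts. Levels are given in CPM, counts scaled to the library total with TMM factors. A count of 3, the limit that a count of 0 allows, was worth 0.226 to 0.318 CPM, and counting intervals cover counting error only. The labels held against their markers. The sum over 8 sdCAM markers was 11000 to 17100 CPM in sdCAM libraries and 125 to 172 CPM in MG libraries, and the sum over 8 microglia markers was 1440 to 2820 CPM and 19000 to 29600 CPM. Gt(ROSA)26Sor, the locus of the reporter, stood at 29.6 to 42.2 CPM in tdT+ libraries and at 3.78 to 10.5 CPM in all other libraries. The tdT- BLZ945 library F1 stood apart, with a summed level of 10 monocyte markers of 251 CPM (group median, 33.8) and of 12 dendritic cell markers of 241 CPM (group median, 69.6). Without it, edgeR called 9 of the 9 lectins other than the sort gate Mrc1 between tdT- BLZ945 and MG BLZ945. Of all 10, edgeR called 0 between tdT- BLZ945 and tdT- CTL and 2 between tdT+ and tdT- BLZ945. In each case this was as many as with F1. For the difference between the BLZ945 effects in tdT- sdCAMs and in MG, only Clec4a2, Clec4n, Clec7a and Mrc1 were expressed enough in MG. None of them was called with or without F1. Fold changes without F1 are given with the genes.

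Sequences upstream of 4 Cd209 genes are shown first. RefSeq (GRCm38.p6) gave an upstream sequence for 8 of the 10 genes, the 5 Cd209 genes included, and the 250 bases before the annotated transcription start are printed 5′ to 3′ in the direction of the gene. The pair Cd209f (chr8:4105765-4106014, minus strand) and Cd209g (chr8:4134486-4134735, plus strand) is shown because the upstream sequences of these genes share a run of 154 identical bases, in capitals, which ends 1 base before the start of Cd209f and 15 bases before that of Cd209g.
Cd209f: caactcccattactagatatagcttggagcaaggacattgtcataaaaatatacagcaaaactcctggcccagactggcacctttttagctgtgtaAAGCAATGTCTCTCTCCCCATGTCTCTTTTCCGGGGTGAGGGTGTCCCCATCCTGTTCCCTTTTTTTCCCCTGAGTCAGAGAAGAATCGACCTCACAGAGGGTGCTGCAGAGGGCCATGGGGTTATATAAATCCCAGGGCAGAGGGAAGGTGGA
Cd209g: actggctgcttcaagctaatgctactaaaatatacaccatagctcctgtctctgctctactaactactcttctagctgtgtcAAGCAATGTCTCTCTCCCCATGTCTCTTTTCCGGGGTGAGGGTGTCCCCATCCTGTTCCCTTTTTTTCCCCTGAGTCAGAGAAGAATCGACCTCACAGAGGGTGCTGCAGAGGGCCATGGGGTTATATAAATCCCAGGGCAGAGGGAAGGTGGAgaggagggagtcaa
The shared run held the AP-1 motif TGANTCA and the TATA motif TATAAA in both genes. Of 32851 upstream sequences of this length, 6.75% held TGANTCA and 12.4% held TATAAA on either strand. The bases of both upstream sequences matched in 78.1% of the columns of a global alignment, against 58.0% for Cd209d and Cd209b, the next pair.

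Cd209a (chr8:3748985-3749234, minus strand) and Cd209b (chr8:3926842-3927091, minus strand) are shown because the Cd209a levels of tdT- and tdT+ BLZ945 libraries overlapped, whereas those of Cd209b did not. Capitals mark matches, on either strand, to any of the AP-1 motif TGANTCA, the TATA motif TATAAA, the PU.1 core GAGGAA and the MAF half-site TGCTGAC.
Cd209a: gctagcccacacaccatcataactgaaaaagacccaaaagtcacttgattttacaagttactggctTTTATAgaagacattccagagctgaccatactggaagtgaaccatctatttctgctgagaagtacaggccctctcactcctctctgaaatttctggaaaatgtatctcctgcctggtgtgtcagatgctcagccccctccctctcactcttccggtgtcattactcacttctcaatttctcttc
Cd209b: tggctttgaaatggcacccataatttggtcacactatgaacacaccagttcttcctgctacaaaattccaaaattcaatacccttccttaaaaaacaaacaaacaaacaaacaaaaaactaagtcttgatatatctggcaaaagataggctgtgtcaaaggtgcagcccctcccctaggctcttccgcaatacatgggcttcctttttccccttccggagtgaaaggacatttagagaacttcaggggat
Only the TATA motif was found upstream of Cd209a, on the opposite strand 184 bases before the start, and none of the 4 motifs was found upstream of Cd209b. GAGGAA was found in 1 of 5 Cd209 upstream sequences (Cd209d) and in 2 of the 3 others (Mrc1 and Clec7a), against 23.3% of all. TGCTGAC was found in none of the 8, against 3.81% of all. A match is a string of letters, and no binding was measured here.

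The likeness of Cd209f and Cd209g extends into the transcripts and bears on their counts. Of the 50-base windows of the annotated Cd209f transcripts, 29.8% also occurred in Cd209g, and 16.6% of the Cd209g windows occurred in Cd209f (GENCODE M21). By this annotation Cd209f starts at chr8:4105835 and Cd209g at chr8:4134098, which differs from the RefSeq starts used above. The sequence printed above for Cd209g thus lies within the gene by GENCODE M21, and that for Cd209f does so in part. Reads from these windows cannot be assigned to either gene, and how they were counted is not given in the sources used here, so the split between Cd209f and Cd209g is uncertain. Cd209a, Cd209b, Cd209d, Mrc1 and Clec7a shared no such window with any other gene. For Clec10a, 9.02% of windows occurred in another gene, mostly its neighbour Mgl2. For Clec4a2 the share was 6.69%, mostly with Clec4a4, and for Clec4n it was 0.686%.

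Among sdCAMs, Cd209b, Cd209f and Cd209g were called lower by edgeR in tdT+ than in tdT- CTL cells, and Cd209b and Cd209f also in tdT+ than in tdT- BLZ945 cells. With the animals as a block, the call against tdT- BLZ945 was kept for Cd209b and lost for Cd209f. None of the 10 genes was called between tdT- BLZ945 and tdT- CTL cells, and Cd209a, Cd209d and the other 5 lectins were called in none of these 3 comparisons. The sum of the 7 Cd209 genes of the table (the 5 named here, Cd209c and Cd209e) was 1900 ± 564 CPM in tdT- CTL (SD, n = 5), 874 ± 141 CPM in tdT- BLZ945 (n = 5) and 253 ± 105 CPM in tdT+ BLZ945 (n = 3). Without the library F1, that of tdT- BLZ945 was 908 ± 138 CPM (n = 4). Its ranges of 1410 to 2860, 709 to 1010 and 138 to 346 CPM did not overlap. The summed level of the 8 sdCAM markers, which include none of the lectins, was 11000 to 13800 CPM in tdT+ libraries, below the 14400 to 17100 CPM of tdT- CTL and overlapping with the 13700 to 17000 CPM of tdT- BLZ945, and its part in the Cd209 levels was not tested. Since these are bulk samples, fewer cells with a transcript and less transcript per cell cannot be told apart.

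**Figure D1:**
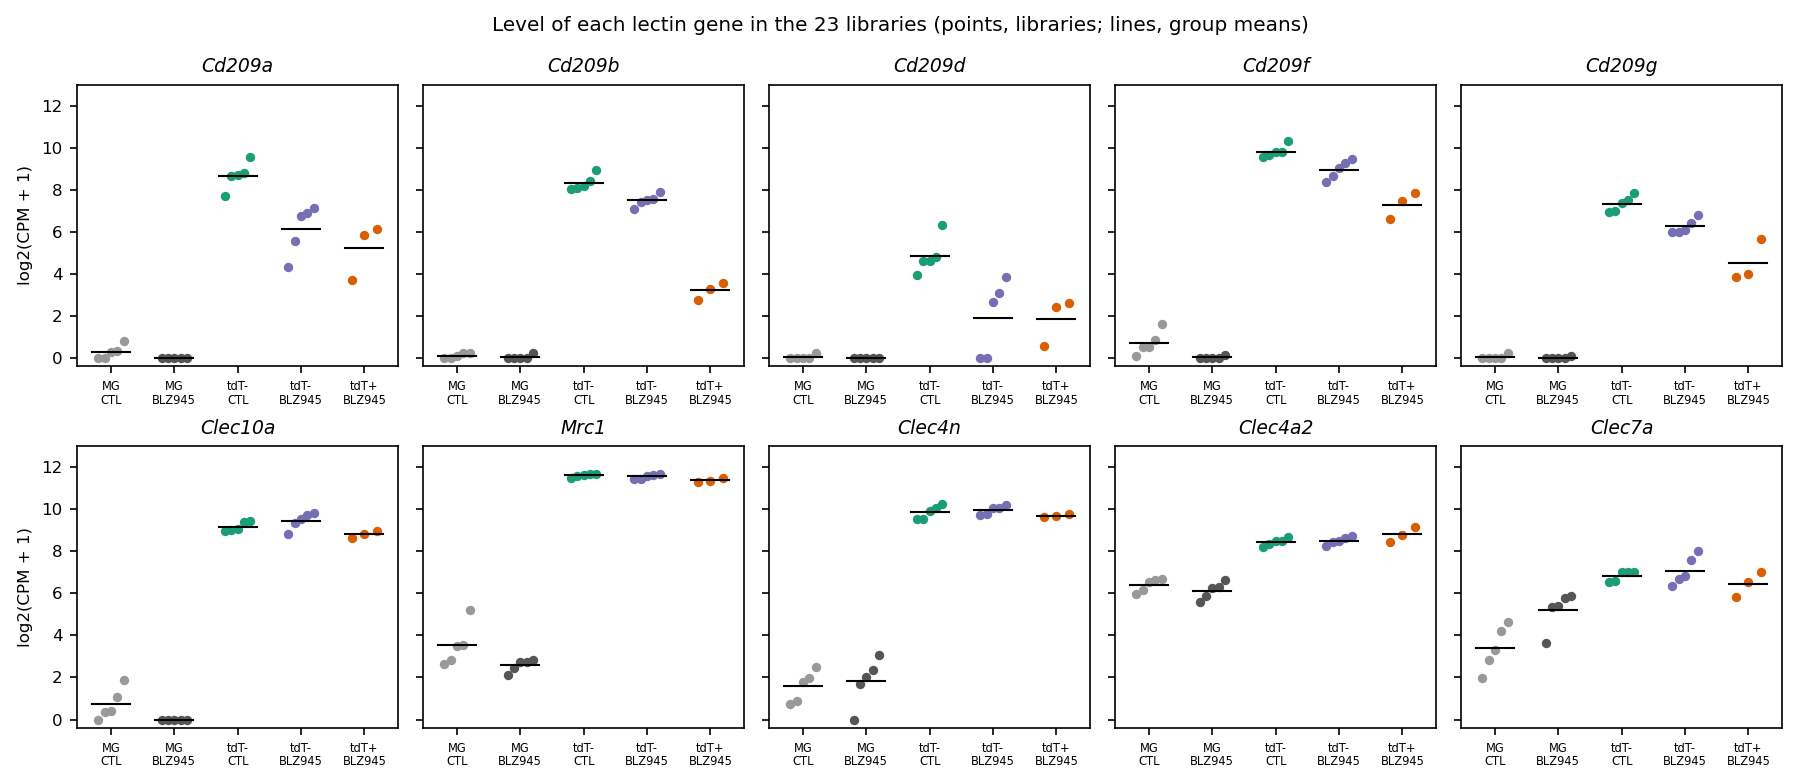
Level of each of the 10 lectin genes as log2(CPM + 1) in the 23 libraries, one panel per gene, with the 5 groups along the horizontal axis; points are libraries and lines are group means. Each Cd209 gene has a lower mean in tdT+ BLZ945 than in tdT- CTL sdCAMs, a difference that passed the edgeR test for Cd209b, Cd209f and Cd209g, and the points of Clec10a, Mrc1, Clec4n and Clec4a2 overlap between tdT- CTL and tdT- BLZ945.

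Cd209b encodes SIGN-R1, a receptor of tissue macrophages that binds microbial polysaccharides. It stood at 285, 342, 259, 496 and 266 CPM in the tdT- CTL libraries F1, F2, F3, M1 and M2, and at 133, 235, 189, 171 and 184 CPM in the tdT- BLZ945 libraries in the same order. In the tdT+ libraries F2, F3 and M2 it stood at 8.81, 5.84 and 10.9 CPM. The 3 groups did not overlap, and the tdT+ libraries lay more than 10 times below every tdT- library. Cd209b was 21.6-fold lower in tdT+ than in tdT- BLZ945 sdCAMs (log2 fold change -4.43 ± 0.31, SE; 95% interval of the fold 13.7 to 34.1; edgeR quasi-likelihood test, adjusted p = 2.72e-06), and it was lower in all of the 8 fits that left out a library (adjusted p of at most 0.000118) and with the animals as a block (adjusted p = 0.00466). Without the tdT- library F1, the log2 fold change was -4.53. Against tdT- CTL, Cd209b in tdT+ cells was 38.8-fold lower (interval 24.1 to 62.5; edgeR adjusted p = 3.88e-07).

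The tdT+ and tdT- BLZ945 libraries of one label came from the same animal or pool, which allowed a comparison within animals. In F2, F3 and M2, the Cd209b level of tdT+ cells was 3.74%, 3.09% and 5.93% of that of the tdT- cells. For Cd209f the shares were 36.8%, 52.7% and 13.8%, and for Cd209g 43.9%, 24.5% and 16.1%. For Cd209a the shares were 121%, 65.2% and 62.3%, so this gene did not go 1 way in the 3 pairs.

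**Figure D2:**
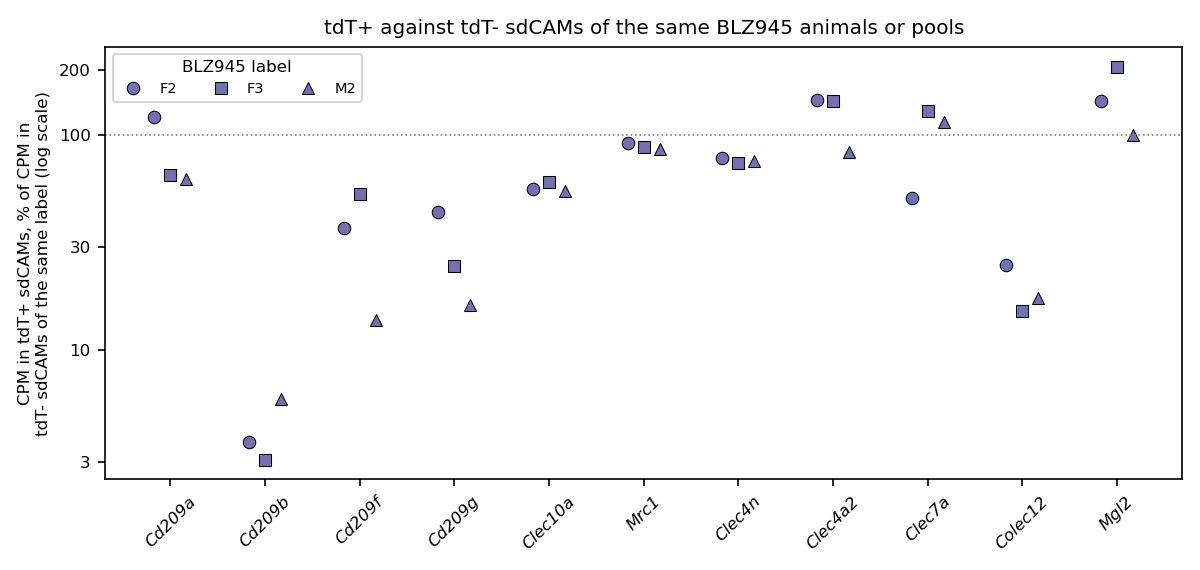
CPM of tdT+ sdCAMs as a percentage of the CPM of tdT- sdCAMs with the same label (log scale), for 9 of the lectin genes (Cd209d was at 0 in 2 of the tdT- libraries), Colec12 and Mgl2; symbols mark F2, F3 and M2 and the dotted line marks equal levels. Cd209b lies lowest, at 3.09% to 5.93%.

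Cd209f was the most abundant Cd209 gene in every sdCAM library by counts. It stood at 877, 873, 802, 1260 and 744 CPM in the tdT- CTL libraries F1, F2, F3, M1 and M2, at 404, 613, 328, 530 and 702 CPM in tdT- BLZ945, and at 225, 173 and 97.0 CPM in the tdT+ libraries F2, F3 and M2. The groups did not overlap. In tdT+ cells Cd209f was 3.17-fold lower than in tdT- BLZ945 cells (log2 fold change -1.66 ± 0.29, SE; edgeR adjusted p = 0.0256). This call was lost with the animals as a block (adjusted p = 0.597) and without tdT- F2 (0.0504), tdT- M1 (0.0625), tdT+ F3 (0.126) or tdT+ M2 (0.111), with log2 fold changes of -1.93 to -1.38 over the fits that left out a library, among them -1.74 without tdT- F1 (adjusted p = 0.031). Against tdT- CTL, Cd209f was 5.57-fold lower in tdT+ cells (interval 3.56 to 8.72; edgeR adjusted p = 0.000788), and it was called in each of the 14 alternatives tried.

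Cd209g stood at 164, 184, 125, 228 and 121 CPM in tdT- CTL, at 66.2, 112, 61.7, 63.4 and 84.7 CPM in tdT- BLZ945 (F1, F2, F3, M1, M2) and at 49.0, 15.1 and 13.6 CPM in tdT+ cells (F2, F3, M2). Here too the groups were separate, with the tdT+ library F2 above the other two. Cd209g was 3.04-fold lower in tdT+ than in tdT- BLZ945 cells, which did not pass the test (edgeR adjusted p = 0.199; 0.00531 by DESeq2). Without the tdT+ library F2 it passed, with a log2 fold change of -2.43 (edgeR adjusted p = 0.00656), and without tdT- F1 it did not, at -1.66 (0.24). Cd209g in tdT+ cells was 6.42-fold lower than in tdT- CTL (interval 3.52 to 11.7; log2 fold change -2.68, edgeR adjusted p = 0.0057). Without the tdT+ library F2 the log2 fold change was -3.52, and it passed in each fit that left out a library, with an adjusted p of up to 0.0482 (without tdT+ F3). The ratio of Cd209f to Cd209g counts, whose split is uncertain as given above, was 4.74 to 6.42 in tdT- CTL, 5.3 to 8.35 in tdT- BLZ945 and 4.6 to 11.4 in tdT+ libraries.

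Cd209a, the gene most often named mouse DC-SIGN, and Cd209d had levels in tdT- BLZ945 libraries that overlapped with those in tdT+ libraries. Cd209a stood at 409, 436, 206, 754 and 402 CPM in tdT- CTL (F1, F2, F3, M1, M2), at 120, 47.0, 107, 140 and 19.2 CPM in tdT- BLZ945 and at 57.0, 69.6 and 11.9 CPM in tdT+ cells (F2, F3, M2). All BLZ945 libraries lay below all CTL libraries, and the tdT- and tdT+ BLZ945 libraries overlapped. The Cd209a level in tdT- cells was 5.06-fold lower after BLZ945 (interval 2.36 to 10.8), and that in tdT+ cells was 1.9-fold lower than in tdT- BLZ945 cells (interval 0.795 to 4.55). Neither difference passed the test (edgeR adjusted p = 0.304 and 0.851). Tested against tdT- CTL, the level in tdT+ cells was 9.62-fold lower, with an adjusted p of 0.0538 by edgeR and of 0.000359 by DESeq2. By edgeR the adjusted p was 0.00433 with no filter on low counts, 0.0439 with the study's filter and 0.0165 in a model of all 23 libraries, and 0.053 to 0.233 over the fits that left out a library.

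Cd209d was the least abundant of the 5. It stood at 26.9, 23.8, 14.5, 80.0 and 23.7 CPM in tdT- CTL, at 5.25, 0, 7.46, 13.31 and 0 CPM in tdT- BLZ945 and at 0.479, 5.14 and 4.31 CPM in tdT+ cells. A count of 0 in tdT- F2 and M2 allowed up to 0.294 and 0.318 CPM. Its fold against tdT- CTL had wide intervals, from 1.33 to 30.8 in tdT- BLZ945 and from 1.36 to 75.4 in tdT+ cells, and neither passed the test (edgeR adjusted p = 0.815 and 0.605). The log2 fold change of Cd209d in tdT- BLZ945 was -2.08 without the tdT- CTL library M1 and -3.39 without the tdT- BLZ945 library M1, in place of -2.68, and that in tdT+ cells was -2.74 without the tdT- CTL library M1, in place of -3.34.

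The BLZ945 effect within tdT- sdCAMs did not pass the test for any of the 10 genes, nor for any of the 13076 genes tested (0.0% called by edgeR, 697 genes or 5.33% at an unadjusted p under 0.05). The 5 Cd209 genes were lower with an unadjusted p under 0.05 (0.000363 to 0.0236 by edgeR), against 2.76% of the genes tested, and their groups did not overlap, against 1.23%. By DESeq2, 2 of them were called lower, Cd209a (adjusted p = 0.0295) and Cd209b (0.0485), against 0.238% of genes. The median log2 fold change was -1.08 over the Cd209 genes and 0.11 over the other 5, beside -0.00 over all genes tested. Without the tdT- BLZ945 library F1, the log2 fold change was -2.48 for Cd209a, -0.75 for Cd209b, -2.68 for Cd209d, -0.74 for Cd209f and -1.03 for Cd209g, and that of the other 5 was -0.01 (Mrc1) to 0.44 (Clec10a), with none of the 10 called.

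Between tdT+ and tdT- BLZ945 sdCAMs, 2 of the 10 genes were called lower by edgeR (Cd209b and Cd209f), against 0.191% of the 13076 genes tested, and 3 had groups that did not overlap (Cd209b, Cd209f and Cd209g), against 1.66%. With the animals as a block, 1 of the 10 was called (Cd209b), and 6 genes in all in place of 27. Between tdT+ and tdT- CTL sdCAMs, 3 were called lower (Cd209b, Cd209f and Cd209g), against 0.214%, and all 5 Cd209 genes had separate groups, against 4.96%. These 2 comparisons share the tdT+ libraries, and in the second of them treatment and origin differ together. The split of reads between Cd209f and Cd209g is uncertain, as given above, so they may not count as separate genes here.

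**Figure D3:**
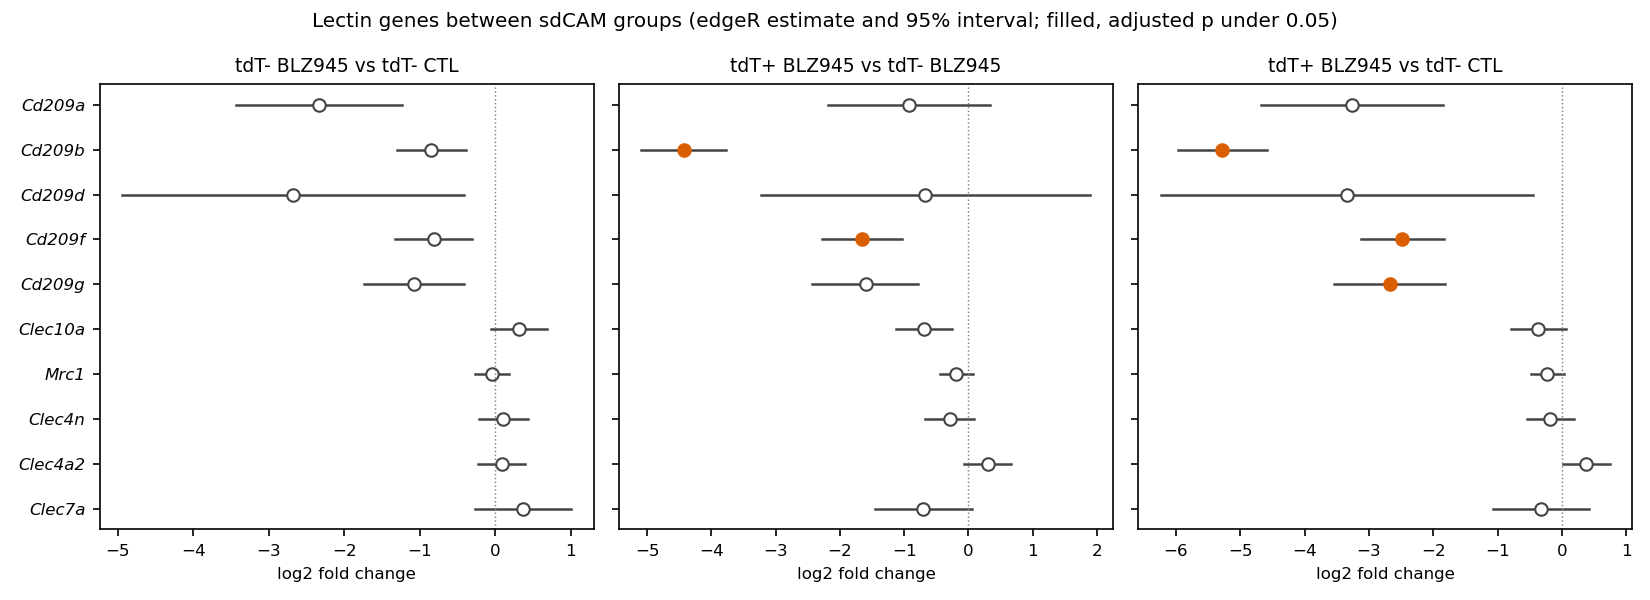
Log2 fold change of the 10 lectin genes in 3 comparisons between sdCAM groups, with 95% intervals from edgeR; filled points have an adjusted p under 0.05 over all 13076 genes. Cd209b falls by 4.43 between tdT- and tdT+ BLZ945 cells, and the intervals of Mrc1 and Clec4n include 0 in each comparison.

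The share of each gene in the Cd209 counts is given as a description and was not tested. Cd209b held 16.1% to 18.4% of the Cd209 counts in tdT- CTL libraries, 18% to 26.6% in tdT- BLZ945 libraries and 2.13% to 7.9% in tdT+ libraries. The tdT+ range of Cd209b lay below both others, which overlapped. Cd209a held 14.6% to 26.4%, 1.93% to 16.2% and 8.63% to 25.4%, with overlap between all 3 groups. The ratio of Cd209b to Cd209a counts was thus 0.659 to 1.26 in tdT- CTL, 1.11 to 9.62 in tdT- BLZ945 and 0.0838 to 0.916 in tdT+ libraries, with no overlap between the BLZ945 groups. This ratio was chosen after its values were seen and was not tested.

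**Figure D4:**
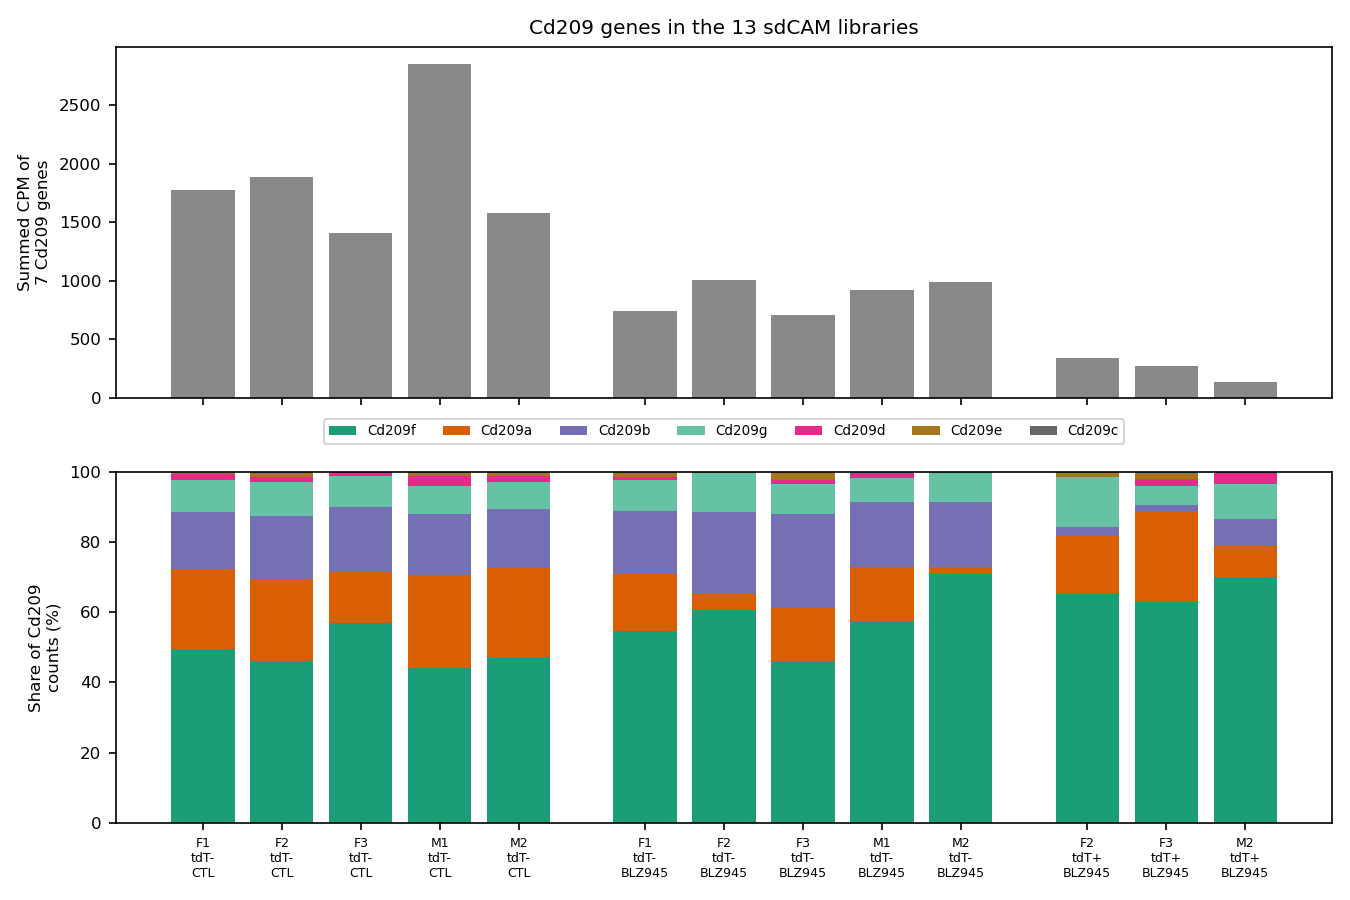
Summed CPM of 7 Cd209 genes (top) and the share of each in their counts in percent (bottom) for the 13 sdCAM libraries, named by label and group. The total is 1410 to 2860 CPM in tdT- CTL and 138 to 346 CPM in tdT+ cells, and the Cd209b share is smallest in the tdT+ libraries.

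The genes around the cluster were examined in the same fits. Of the 24 other protein-coding genes with a start within 250 kb of the Cd209 genes (RefSeq order), 15 were expressed enough to be tested. None of the 15 was called by edgeR in any of the 3 comparisons between sdCAM groups, and 0, 0 and 1 had an unadjusted p under 0.05, beside 5.33%, 6.91% and 7.44% of all genes in tdT- BLZ945 against tdT- CTL, tdT+ against tdT- BLZ945 and tdT+ against tdT- CTL. Cd209c and Cd209e, which lie inside the cluster and were not among the 10, had few counts. The mean of Cd209c was 5.14 CPM in tdT- CTL, 1.69 CPM in tdT- BLZ945 and 0.464 CPM in tdT+ cells, and that of Cd209e was 16.5, 5.89 and 3.37 CPM. Neither passed the test in any of the 3 comparisons (edgeR adjusted p of at least 0.517).

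The other 5 lectins follow. Clec10a encodes the galactose-type lectin Mgl1 (CD301a), which binds galactose and N-acetylgalactosamine. It stood at 528, 490, 702, 665 and 512 CPM in tdT- CTL (F1, F2, F3, M1, M2), at 454, 900, 654, 748 and 832 CPM in tdT- BLZ945 and at 502, 395 and 455 CPM in tdT+ cells (F2, F3, M2). The groups overlapped, the tdT- BLZ945 library F1 being the lowest of its group. Within the same animals, the tdT+ level was 55.7%, 60.4% and 54.7% of the tdT- level. Over the groups, Clec10a was 1.61-fold lower in tdT+ than in tdT- BLZ945 cells (interval 1.19 to 2.18), which did not pass the test over all genes (edgeR adjusted p = 0.45, 0.225 with the animals as a block and 0.119 without tdT- F1).

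Mrc1 encodes the mannose receptor CD206, and since the cells were sorted on it, its level in MG against sdCAMs follows from the sort. Among the sdCAM groups it stood at 2858, 3265, 3286, 3088 and 3116 CPM in tdT- CTL, at 2776, 2780, 3299, 3175 and 3050 CPM in tdT- BLZ945 and at 2534, 2896 and 2610 CPM in tdT+ cells. Its fold between any 2 of these groups had a 95% interval within 0.716 and 1.13. Clec4n encodes Dectin-2, which binds fungal mannans. It stood at 728, 741, 949, 1059 and 1207 CPM, at 882, 1062, 1173, 853 and 1045 CPM and at 828, 868 and 785 CPM in the 3 groups in the same order. The groups overlapped, with intervals of the fold between 0.631 and 1.35, and in the 3 pairs from the same animals the tdT+ level was 77.9%, 74.0% and 75.2% of the tdT- level.

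Clec4a2 encodes an inhibitory receptor of the DCIR family. It stood at 288, 319, 407, 353 and 354 CPM in tdT- CTL, at 351, 392, 305, 353 and 416 CPM in tdT- BLZ945 and at 569, 441 and 347 CPM in tdT+ cells. It was the only one of the 10 genes with a mean higher in tdT+ cells than in both tdT- groups, 1.3-fold against tdT- CTL (interval 1.02 to 1.67; edgeR adjusted p = 0.627) and 1.23-fold against tdT- BLZ945 (interval 0.956 to 1.58; edgeR adjusted p = 0.817). Clec7a encodes Dectin-1, the receptor for beta-glucans, which signals through Syk. It stood at 91.7, 94.4, 130, 130 and 129 CPM, at 256, 110, 99.9, 192 and 79.7 CPM and at 55.7, 128 and 90.6 CPM in the 3 groups. The tdT- BLZ945 libraries F1 and M1 were the highest, and they were also those with Plac8, a monocyte marker, at 78.2 and 73.3 CPM. Without F1, the log2 fold change of Clec7a between tdT- BLZ945 and tdT- CTL was 0.08 in place of 0.37, neither called by edgeR (adjusted p = 0.991 and 0.998). The part of such cells in the Clec7a level was not tested.

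Per kilobase of annotated exon, which allows levels to be compared between genes, the order of means in tdT- CTL was Clec4n (660 CPM per kb), Mrc1 (490), Cd209f (458), Cd209a (279), Clec10a (200), Cd209b (156), Clec4a2 (118), Cd209g (45.5), Clec7a (43.6) and Cd209d (36.7). In tdT+ cells it was Clec4n (582 CPM per kb), Mrc1 (421), Clec10a (155), Clec4a2 (154), Cd209f (83.0), Clec7a (34.7), Cd209a (29.2), Cd209g (7.18), Cd209b (4.03) and Cd209d (3.6). Cd209b stood in the sixth place in tdT- CTL and in the place above the last in tdT+ cells. The exon lengths count all annotated transcripts, of which some retain introns.

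In microglia, Clec4a2 and Clec7a were detected in every library, at 2.91 CPM or more. Mrc1, the gate, was at 3.27 to 35.8 CPM and Clec4n at 0 to 7.25 CPM, and the 5 Cd209 genes and Clec10a were at or near the limit of detection. Over the 5 MG BLZ945 libraries, Cd209a, Cd209d and Clec10a had 0 counts, Cd209f and Cd209g had 1 count each and Cd209b had 2. Over the 5 MG CTL libraries there were 15 counts of Cd209a, 5 of Cd209b, 2 of Cd209d, 45 of Cd209f, 2 of Cd209g and 51 of Clec10a, and Clec4n had 139 and 188 counts in MG CTL and MG BLZ945. Of the 45 Cd209f counts 24 came from M1, whose tdT- library had the highest Cd209f level of its group. Of the 51 Clec10a counts 31 came from F2, whose tdT- library had the lowest Clec10a level of its group. The mean MG CTL level of these 7 genes was 0.0208% to 0.245% of that in tdT- CTL, beside 0.052% to 0.304% for 7 of the 8 sdCAM markers (the other, Stab1, was at 12.4%). Whether these counts came from a few sdCAMs in the MG gate was not tested.

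Except for the gate Mrc1, all 9 lectins were called higher in tdT- CTL sdCAMs than in MG CTL, against 15.3% of 12697 genes, all 9 in tdT- BLZ945 sdCAMs than in MG BLZ945, against 18.3%, and 8 in tdT+ BLZ945 sdCAMs than in MG BLZ945, against 14.6% of 13790 genes. None was called lower, against 10.3%, 14.1% and 10.6%. The genes were chosen as lectins of border macrophages, with earlier results of these data known. That they were higher than in MG thus follows in part from the choice. Summed over libraries, Cd209a was at least 1680-fold higher and Clec10a at least 13500-fold higher in tdT- BLZ945 sdCAMs than in MG BLZ945, computed against 3 counts over the 5 MG libraries. In tdT+ cells these bounds were 878-fold and 8530-fold. Cd209b, with 260 counts in tdT+ cells and 2 in MG BLZ945, was 242-fold higher (counting interval 66.2 to 2010) in tdT+ cells. Cd209b was still detected in tdT+ cells, with 59 to 109 counts in each library.

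Clec4a2 stood at 70.5, 91.5, 97.9, 100.5 and 62.05 CPM in MG CTL (F1, F2, F3, M1, M2) and at 75.3, 78.9, 56.9, 96.9 and 46.4 CPM in MG BLZ945. It was 4.1-fold higher in tdT- CTL than in MG CTL (interval 3.17 to 5.31; edgeR adjusted p = 1.12e-08), 5.17-fold higher in tdT- BLZ945 than in MG BLZ945 (3.98 to 6.71; adjusted p = 1.38e-09) and 6.38-fold higher in tdT+ BLZ945 than in MG BLZ945 (4.76 to 8.55; adjusted p = 4.18e-10). Of the 10 genes it thus had the smallest difference between tdT- CTL sdCAMs and microglia.

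Clec7a stood at 17.7, 6.04, 2.91, 8.88 and 23.4 CPM in MG CTL and at 39.3, 11.5, 41.5, 58.0 and 53.5 CPM in MG BLZ945. In 4 of the 5 MG BLZ945 libraries it was above every MG CTL library, and F2, the lowest, lay among the MG CTL libraries. F2 was also the only MG BLZ945 library from 1 animal, as all MG CTL libraries were. The part of pooling was not tested. The mean was 11.8 CPM in MG CTL and 40.8 CPM in MG BLZ945, a 3.42-fold difference (interval 1.72 to 6.77) that did not pass the test over all genes (edgeR adjusted p = 0.106), and passed it without MG CTL M2 (0.0318) or MG BLZ945 F2 (0.0434), with no filter on low counts (0.000483) and with the replicate block (0.0201). The Clec7a difference between sdCAMs and microglia was 9.78-fold in CTL (interval 4.91 to 19.5; edgeR adjusted p = 1.52e-05), 3.65-fold for tdT- cells in BLZ945 (1.92 to 6.96; adjusted p = 0.00277, and 0.0106 without tdT- F1) and 2.25-fold for tdT+ cells (1.12 to 4.5; edgeR adjusted p = 0.0812, 0.0279 with the animals as a block, and 0.0458 by DESeq2). The difference between the BLZ945 effects in tdT- sdCAMs and in MG was -1.42 ± 0.62 on the log2 scale for Clec7a (SE; edgeR adjusted p = 0.514), and -1.71 without tdT- F1 (adjusted p = 0.281).

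In MG BLZ945 against MG CTL, 4 of the 10 genes were expressed enough to be tested and none was called by edgeR, against 0.408% of 11264 genes, while 2 had an unadjusted p under 0.05, against 13.2%. Mrc1 was 2.7-fold lower after BLZ945 (interval 1.4 to 5.2; adjusted p = 0.177), with the library F3 of MG CTL at 35.8 CPM and the others between 3.27 and 10.7 CPM. DESeq2 called it (adjusted p = 0.0343), and so did edgeR with no filter on low counts (0.0271). Without that library the log2 fold change of Mrc1 was -0.68 in place of -1.43 (edgeR adjusted p = 0.421). Clec4a2 was 1.2-fold lower (interval 0.919 to 1.57; adjusted p = 0.581), and for Clec4n the fold had an interval of 0.467 to 4.35. For the difference between the BLZ945 effects in tdT- sdCAMs and in MG, the fit held all 10 genes. The 5 Cd209 genes and Clec10a, at or near the limit of detection in MG, entered it through the sdCAM libraries. They give no usable BLZ945 effect in MG, so only the 4 genes tested in MG are read here. None of these was called by edgeR, against 0.0394% of 12697 genes (5 genes). Over the fits that left out a library, 0 to 36 genes were called, with 36 without tdT- BLZ945 F1. Clec7a and Mrc1 had an unadjusted p under 0.05 (0.0329 and 0.00981 by edgeR), against 8.69% of all genes. Of the genes near the limit, edgeR called none and DESeq2 called Cd209f and Clec10a, whose MG BLZ945 counts were 1 and 0.

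Lists of related genes were counted in the same fits. Of 36 other C-type lectin receptors, 35 were in the table and 24 were tested between tdT- CTL and MG CTL, of which 15 were called higher and 4 lower in sdCAMs, against 15.3% and 10.3% of all genes tested. Colec12, a collectin that acts as a scavenger receptor, was at 355 ± 41.2 CPM against 12 counts over the 5 MG libraries. Mgl2 (CD301b), the neighbour and relative of Clec10a, was at 464 ± 75.0 CPM against 0.717 ± 0.827 CPM, and Clec4d at 116 ± 58.9 CPM against 0.834 ± 0.729 CPM (SD, n = 5). In BLZ945, 16 were called higher and 3 lower in tdT- cells, with Mgl2, Colec12 and Clec12a leading (all genes, 18.3% and 14.1%), and 15 of 26 higher and 3 lower in tdT+ cells, with Mgl2, Clec4b1 and Colec12 leading (all genes, 14.6% and 10.6%).

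Among the sdCAM groups, Colec12 was the 1 gene of this list that was called by edgeR, while 3, 4 and 6 of the 23 tested had an unadjusted p under 0.05 in tdT- BLZ945 against tdT- CTL, tdT+ against tdT- BLZ945 and tdT+ against tdT- CTL, beside 5.33%, 6.91% and 7.44% of all genes. Colec12 was called lower in the last 2 of these, where 0.191% and 0.214% of all genes were. It stood at 39.5, 32.6 and 64.0 CPM in the tdT+ libraries F2, F3 and M2, against 159 to 365 CPM in tdT- BLZ945 and 323 to 426 CPM in tdT- CTL. Its log2 fold change in tdT+ cells was -2.37 ± 0.29 against tdT- BLZ945 (SE; edgeR adjusted p = 0.000893) and -2.97 ± 0.3 against tdT- CTL (edgeR adjusted p = 0.000134). In the same animals the tdT+ level of Colec12 was 24.9%, 15.1% and 17.5% of the tdT- level. The median log2 fold change of the list was -0.26 and 0.16 in these comparisons, beside -0.02 and -0.03 over all genes. Mgl2, with means of 464, 665 and 943 CPM in tdT- CTL, tdT- BLZ945 and tdT+ cells, was not called between them, and shares part of its sequence with Clec10a.

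Of 24 genes of C-type lectin receptor signalling, among them Syk and Card9, which carry the signal of Dectin-1 and Dectin-2, 23 were tested between tdT- CTL sdCAMs and MG CTL, and 4 were called higher and 7 lower, beside 15.3% and 10.3% of all genes. Il10, which encodes an anti-inflammatory cytokine, was at 20.2 ± 9.96 CPM against 1 count over the 5 MG libraries, while Lsp1 was 13.8 ± 6.06 against 68.5 ± 17.5 CPM and Rhoh 74.1 ± 9.78 against 241 ± 16.9 CPM (SD, n = 5). In BLZ945, 4 were higher and 10 lower in tdT- cells, with Il10, Src and Malt1 leading (all genes, 18.3% and 14.1%), and 3 higher and 6 lower in tdT+ cells, with Il10, Rhoh and Nfatc2 leading (all genes, 14.6% and 10.6%). Between the sdCAM groups none of the 23 was called by edgeR, and 1, 0 and 1 had an unadjusted p under 0.05 in tdT- BLZ945 against tdT- CTL, tdT+ against tdT- BLZ945 and tdT+ against tdT- CTL, beside 5.33%, 6.91% and 7.44% of all genes. None of either list was called by edgeR between MG BLZ945 and MG CTL, where 1 lectin and 3 signalling genes had an unadjusted p under 0.05 (all genes, 13.2%).

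The genes whose profile was nearest to that of Cd209b over the 23 libraries, by the mean absolute difference of mean-centred log2(CPM + 1) values among 8745 genes, were Timd4 (0.47), Colec12 (0.6) and Pla2g2d (0.66). Timd4, which encodes a phosphatidylserine receptor of resident macrophages, stood at 7.37, 8.31 and 24.9 CPM in tdT+ libraries, and at 111 CPM or more in every tdT- library. Unlike those of Cd209b, the ranges of Timd4, Colec12 and Pla2g2d in the 2 tdT- groups overlapped. Nearest to Clec10a were Gpx3 (0.41), Cd38 (0.46) and Fcna (0.46), and nearest to Clec4a2 were Maf (0.21), Lst1 (0.27) and St6gal1 (0.27). Among the 10 genes themselves, over the 13 sdCAM libraries, the nearest pairs were Mrc1 and Clec4n (0.18), Clec4n and Clec4a2 (0.23) and Mrc1 and Clec4a2 (0.24). Within the cluster they were Cd209f and Cd209g (0.27), whose reads overlap, and Cd209a and Cd209d (0.69).

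**Figure D5:**
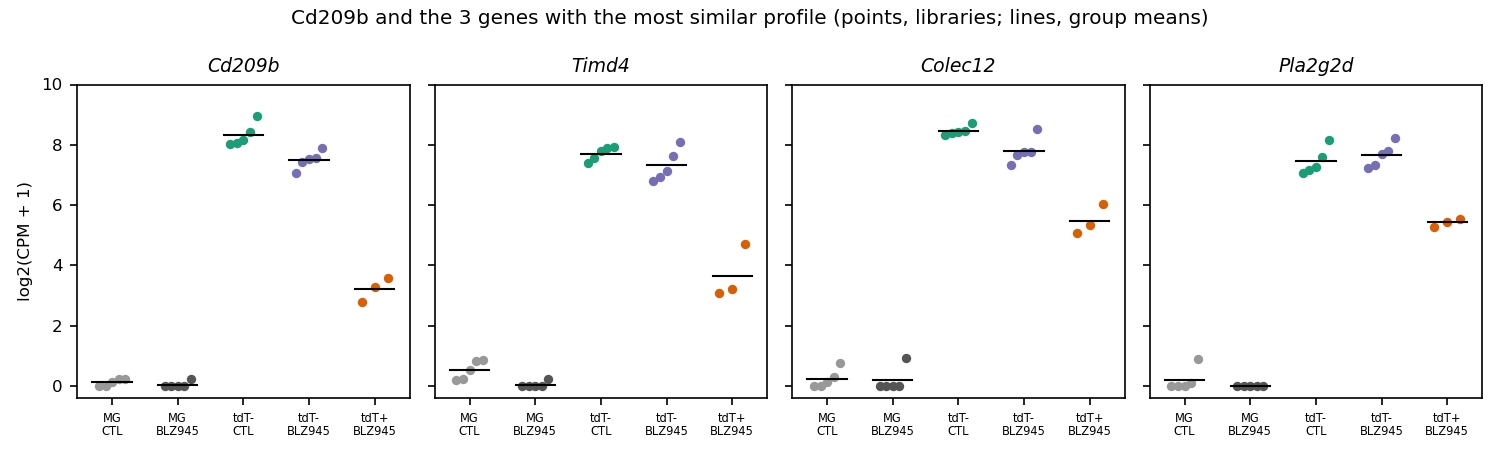
Level of Cd209b and of Timd4, Colec12 and Pla2g2d as log2(CPM + 1) in the 23 libraries by group; points are libraries and lines are group means. All 4 genes are lowest among sdCAMs in the tdT+ libraries and near 0 in MG. Timd4, Colec12 and Pla2g2d were chosen for their nearness to Cd209b in these libraries, so this likeness follows from the choice.

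Markers of other cells were followed in the same groups. The sum of 9 measured lymphocyte markers was, like that of the Cd209 genes, separate between the groups, at 80.8 to 123 CPM in tdT- CTL, 31.4 to 69.5 CPM in tdT- BLZ945 and 2.61 to 5.64 CPM in tdT+ libraries. In tdT- libraries most of it was Cd4, a gene that some macrophages also express, at 80.7 to 121 CPM in CTL and 31.4 to 69.5 CPM in BLZ945. In tdT+ libraries Cd4 was at 1.09 to 2.61 CPM and Ms4a1, a B cell marker, at 0 to 2.28 CPM, while Cd8a and Ncr1 did not exceed 3 counts in any library of these groups. Monocyte markers summed to 8.26 to 33.3, 9.8 to 251 and 8.42 to 50.9 CPM, dendritic cell markers to 59.4 to 90.8, 61.4 to 241 and 81.9 to 94.4 CPM, and neutrophil markers to 123 to 231, 137 to 266 and 133 to 168 CPM in the 3 groups. The sum of endothelial and fibroblast markers was 35.0 to 61.3, 27.0 to 90.9 and 47.3 to 78.7 CPM, and that of neural and choroid plexus markers 128 to 321, 113 to 344 and 151 to 2100 CPM, with the tdT+ library F3 at the top. The part of such cells in the lectin levels was not tested.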

How the data were processed

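RNA of FACS-sorted cells was sequenced in 23 libraries, and the authors deposited raw counts per gene. Per the labels, low-input mRNA libraries (SMART-Seq mRNA LP) were sequenced on an Illumina instrument, and the submitters' processing notes name bcl2fastq 2.20, STAR 2.7.11a and featureCounts 2.0.6. The annotation was Gencode M36, with the build given as mm10 or GRCm39, so coordinates printed here are those of the reference tables (GRCm38). How reads that match several genes were treated and whether counting used strand are not given in the sources used here. Columns were mapped to samples by title, and all 33280 genes of the table were used.

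The count test was edgeR 4.0.16 in R 4.3.3 (quasi-likelihood, two-sided, TMM factors, filterByExpr), with Benjamini-Hochberg adjustment over all genes tested and a threshold of 0.05. Contrasts of tdT- sdCAMs with MG and the interaction were fitted on 20 libraries, tdT+ with MG on 23, MG alone on 10 and sdCAMs alone on 13. Alternatives were DESeq2 1.42.0, RLE size factors, no filter, the study's filter on summed counts, a replicate block, 1 model of all 23 libraries and leaving out each library. The scripts were tested on simulated counts. Levels are CPM with TMM factors. Biological coefficients of variation were 0.253 for MG and 0.704 for sdCAMs, so small differences between sdCAM groups were hard to detect. Within a treatment the same label marks the same animal or pool, so the labels pair samples there, although correlations of the deviations were low (0.032 to 0.12). Between treatments only the label is shared. All libraries matched the sex in their labels, and no pair of libraries of a group agreed within counting noise (chi-square per gene of at least 15.75).

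The 10 genes, the lists and the tests were chosen with earlier results of these data known. All 10 genes are named with their values. From the 2 lists of related genes, at most the 3 called genes with the largest absolute log2 fold change and an average log2 CPM of at least 3 are named in each comparison, and for Cd209b, Clec10a and Clec4a2 the 3 genes of nearest profile. Other genes named were chosen after their values were seen.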

Additional observations from a re-analysis of the deposited data

Results flagged for a closer look

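Among 31 sets of 5 libraries examined for a library far from the rest, 3 values stood apart by Dixon's test (critical value 0.71 for 5 libraries), where chance flags about 1 in 20. In tdT- CTL, library M1 had 79.96 CPM of Cd209d, against 26.9 CPM in the next library and 14.5 CPM in the lowest. The same library had 1260 CPM of Cd209f, against 877 CPM in the next. In MG CTL, library F3 had 35.83 CPM of Mrc1, against 10.7 CPM in the next. Without the tdT- CTL library M1 or the MG CTL library F3, no call for the 10 genes changed, while the log2 fold change of Cd209d between tdT- BLZ945 and tdT- CTL was -2.08 without M1, in place of -2.68.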

How the results depend on the processing

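Over 1013 recomputed fold changes of the lectin genes (for MG BLZ945 against MG CTL and the difference of BLZ945 effects those of Clec4a2, Clec4n, Clec7a and Mrc1 alone, and without Mrc1 between sdCAMs and MG), 988 kept their direction and their side of the threshold, 16 gained a call, 5 lost one and 4 changed sign. The 5 lost calls were all those of Cd209f between tdT+ and tdT- BLZ945 sdCAMs, given in the report. The 4 changes of sign were in values that never passed the test. Over the fits that left out a library, the log2 fold change of Clec4n was -0.01 to 0.94 between MG BLZ945 and MG CTL and -0.84 to 0.11 for the difference of BLZ945 effects, changing sign without MG BLZ945 F3. That of Cd209d between tdT+ and tdT- BLZ945 sdCAMs was -1.13 to 0.04, changing sign without tdT- M1, and 2.68 with the replicate block. The count of called lectins rose from 0 to 3 between MG BLZ945 and MG CTL with no filter on low counts (Clec10a, Mrc1 and Clec7a), to 1 with the replicate block (Clec7a) and to 1 by DESeq2 (Mrc1), and was 0 to 1 over the fits that left out a library. It rose from 0 to 2 by DESeq2 between tdT- BLZ945 and tdT- CTL sdCAMs. For the difference of BLZ945 effects it also rose from 0 to 2 by DESeq2, with Cd209f and Clec10a, both near the limit of detection in MG. Between tdT+ and tdT- BLZ945 sdCAMs it fell from 2 to 1 with the replicate block and was 1 to 3 over the fits that left out a library. Between tdT+ and tdT- CTL sdCAMs it was 4 in place of 3, with Cd209a added, by DESeq2, with no filter, with the study's filter and in the model of all 23 libraries. The cause was not tested. Clec7a also passed between tdT+ sdCAMs and MG BLZ945 with the replicate block (edgeR adjusted p = 0.0279) and by DESeq2 (0.0458), for a count of 9 in place of 8. Beside these changes for Cd209f and Clec7a, the block changed no call. Between treatments the block joins libraries that share only a label. In counts over all genes, DESeq2 called 238 in place of 46 between MG groups, 56 in place of 0 between tdT- groups, 133 in place of 27 between tdT+ and tdT- BLZ945 cells, 181 in place of 37 between tdT+ and tdT- CTL cells and 94 in place of 5 for the difference of effects. A model of all 23 libraries called 12, 29, 82, 121 and 1 and the replicate block 89, 0, 6, 36 and 1. No filter on low counts called 193, 0, 29, 61 and 9, and the study's filter 2 for the difference of effects. CPM levels without TMM factors or with RLE factors moved by less than 1 SD in all 100 recomputed group means. The model of all 23 libraries is the one reported for tdT+ sdCAMs against MG, so it gave no alternative there. Depth limits Cd209d in sdCAMs and, in MG, all but Clec4a2, Clec7a and Mrc1.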
